A study of Mus musculus with 8 samples.

Results

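Kupffer cells are macrophages that live in the liver sinusoids and degrade what they take up in lysosomes, and 38 lysosomal genes were followed here in Kupffer cell RNA from fibrotic and untreated mouse livers. They were taken by name from a list of lysosomal functions, out of 32903 genes with a matched RefSeq transcript. They encode 10 glycosidases, 6 proteins grouped as lipid hydrolases, saposins and granulin, and 3 further hydrolases. The others are 8 proteins of membrane, channel and cholesterol function, 3 transcription factors of lysosome biogenesis, and 8 subunits of the proton pump. All 38 had a matched transcript, 126 transcripts in total.

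The CCl4 group held 3 bulk RNA-seq libraries from wild-type mice given 0.75 mL/kg carbon tetrachloride in corn oil 3 times a week for 8 weeks, a hepatotoxin that scars the liver. The naive group held 5 libraries from wild-type mice that were left untreated, and the labels name no corn oil control. The comparison asked how Kupffer cells of fibrotic livers differ from naive ones. The CCl4 libraries are numbered 1, 2-4 and 3 in the labels, which do not say whether 2-4 is a pool of mice or whether every library is a separate mouse. The p-values therefore rest on the spread among libraries, and some of it may be technical. Values are TPM (an abundance per length of transcript, scaled to the same total in every library), which keep no read depth, so depth is unknown and no counting error could be attached.

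Lysosomes are acidified by the V-ATPase, a proton pump with a membrane sector (V0) and a catalytic sector (V1). Soluble hydrolases inside them digest glycans, lipids and proteins at low pH, and many inherited storage diseases come from the loss of 1 such enzyme. The transcription factors TFEB, TFE3 and MITF activate many of these genes together through a short promoter element called CLEAR. Macrophages are among the cells with the most lysosomes, and in the liver they process red cells, apoptotic cells and lipoproteins.

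RefSeq promoters (250 bases before to 50 after an annotated start, GRCm38.p6) were in hand for 33 of the 38 genes. The full CLEAR element (the core TCACGTG with G before it and AC after it) was in 1 of these 33 (Cln3, 3.03%), against 0.67% of 12245 tested genes with a promoter. The core TCACGTG alone, searched on both strands (the other strand reads CACGTGA, and both overlap the E-box CACGTG), was in 11 of the 33 genes (33.3%), against 6.32% of the tested genes and 4.29% of all 27025 genes with a promoter. The E-box core CACGTG alone was in 11 of 33, against 10.8% of tested genes. A match describes these letters only. In 9 of the 11 genes the core lies wholly before the start, and these are shown because they carry the shared element whose genes are compared with their expression further on. The capitals mark the core on either strand, sequences run 5′ to 3′ on the gene's own strand, and where the stretch lies in an annotated UTR only 1 short site is given.
Lamp1 (chr8:13159087-13159160, plus strand): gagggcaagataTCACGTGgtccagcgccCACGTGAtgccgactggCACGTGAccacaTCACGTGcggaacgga
Gaa (chr11:119267810-119267840, plus strand): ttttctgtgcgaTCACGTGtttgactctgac
Glb1 (chr9:114401017-114401047, plus strand): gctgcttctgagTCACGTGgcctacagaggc
Naglu (chr11:101070010-101070036, plus strand): aaccttcaggTCACGTGgcccgaggtc
Mcoln1 (chr8:3500463-3500490, plus strand): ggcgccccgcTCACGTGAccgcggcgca
Lgmn (chr12:102439124-102439154, minus strand): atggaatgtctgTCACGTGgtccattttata
Atp6v1a (chr16:44139372-44139403, minus strand): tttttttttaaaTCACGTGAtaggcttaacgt
Gla (chrX:134601183-134601210, minus strand): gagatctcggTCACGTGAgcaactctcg
Cln3 (chr7:126583341-126583368, minus strand): acgggtactgTCACGTGAcccccaacct
The Lamp1 promoter held 4 copies within 74 bases of the start. The AP-1 site TGACTCA was in 4 of the 33 genes (Cd68, Glb1, Neu1 and Psap), 12.1% against 5.10% of tested genes. The PU.1 site GAGGAAGT was in 2 (Gla and Gusb), 6.06% against 3.95%.

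The lysosomal genes moved in both directions and mostly by less than 2-fold. In CCl4 libraries the cholesterol transporters Npc1 and Npc2, the saposin precursor Psap, the glycosidases Gla and Gusb, and the transcription factors Tfeb and Mitf were higher, and the membrane proteins Lamp2 and Scarb2, the glycosidase Gaa, the sphingomyelinase Smpd1 and the peptidase Tpp1 were lower. The test was limma on log2(TPM + 1) over every gene that reached 1 TPM in 3 or more libraries, and calls were made at 0.05 after Benjamini-Hochberg adjustment. All 38 genes passed that filter, but Atp6v0d2 passed it through the CCl4 libraries alone and is kept apart. Of the other 37, 7 rose, 5 fell and 25 were not called. That is 32.4% called, against 37.8% of all 15629 tested genes, with 18.9% higher against a background of 15.3% and 13.5% lower against 22.5%. These shares are close to the background, so the count of calls does not set the lysosomal genes apart. Their median log2 fold change was 0.08, against -0.06 over all tested genes. Without CCl4 replicate 1 the median of these 37 was -0.19, and with all libraries and Atp6v0d2 it was 0.13. Leaving out CCl4 replicate 1 gave 6 higher and 9 lower lysosomal genes, against 12.3% and 21.6% of all tested genes, and leaving out replicate 2-4 gave 10 and 3, against 12.3% and 20.7%. The groups did not overlap for 11 of these 37 genes (29.7%, against 36.9% of all tested genes), 7 of them higher and 4 lower, against a background of 16.3% and 20.6%. Only Npc2 and Lamp2 among the 37 changed at least 2-fold on the log2(TPM + 1) scale, a size reached by 21.1% of tested genes. With quantile normalization the median of all genes moved up by 0.17 and 45.4% of them were called (4011 higher, 25.7%, and 3086 lower, 19.7%). Of all 38 lysosomal genes, Atp6v0d2 included, 11 were then higher and 6 lower, around a median of 0.12, against 0.13 for the same 38 without it.

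**Figure D1:**
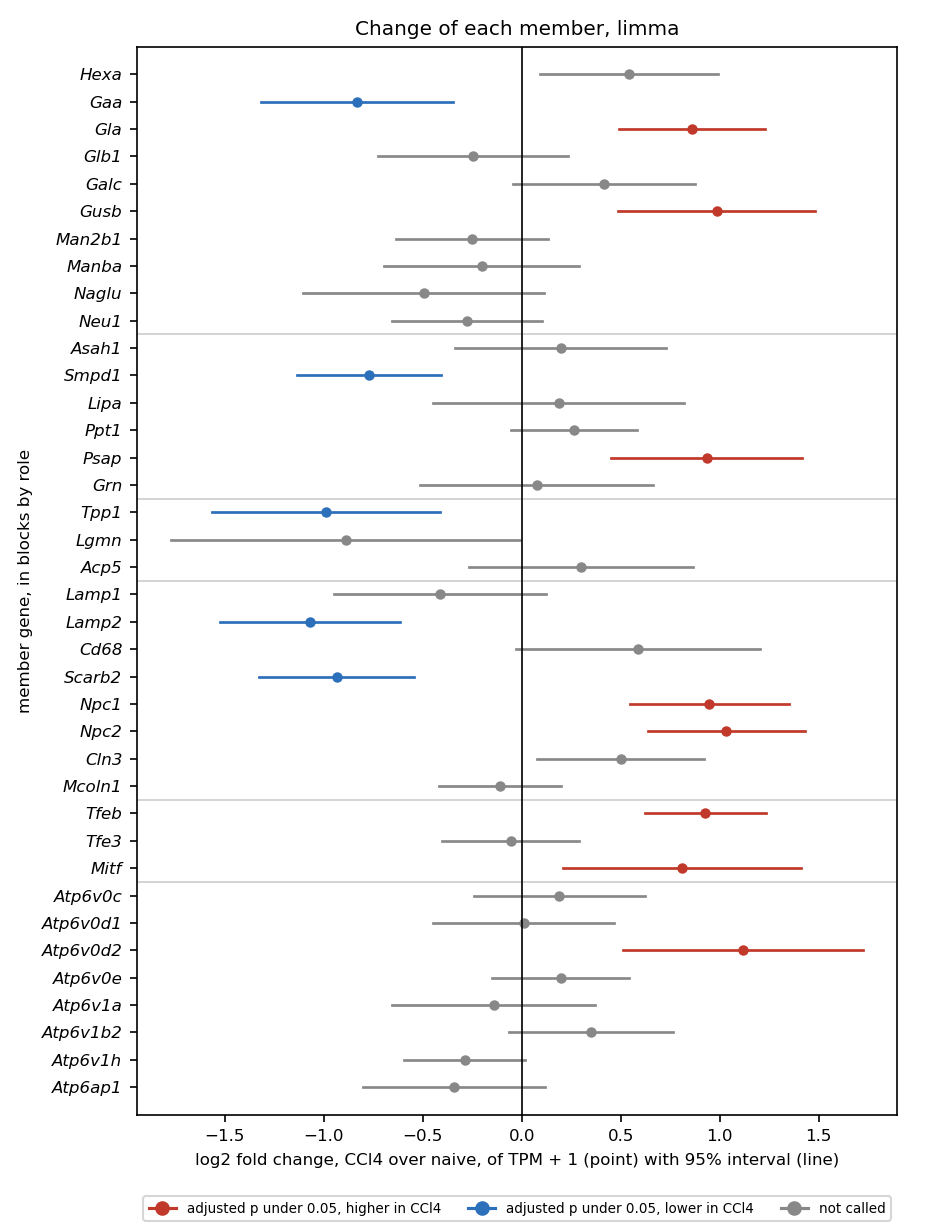
Log2 fold change of each gene, CCl4 over naive, on the log2(TPM + 1) scale (points) with its 95% interval from limma (lines), in blocks by role, with the called genes coloured. The 8 higher and 5 lower genes are spread over the role blocks, and the estimates lie between -1.07 (Lamp2) and 1.12 (Atp6v0d2).

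The preparations also differed in their levels of cell type markers. Of 12 Kupffer cell markers (Clec4f and Cd5l the most abundant) 11 were lower, with a summed level of 826 to 1013 TPM in CCl4 and 3324 to 6474 TPM in naive libraries. All 17 markers of sinusoidal endothelium (Clec4g and Aqp1 the most abundant) were lower, with 299 to 791 TPM in CCl4 and 7952 to 14591 TPM in naive libraries. Of 9 tested monocyte markers (Itgal and Ccr2 leading) 5 were higher, with 899.8 to 1248 TPM against 244 to 446 TPM, and of 10 general macrophage markers (Lyz2 and C1qb leading) 3 were higher and 1 lower, with 4924 to 11418 TPM against 3555 to 6868 TPM. Dendritic cell markers (Itgax and Zbtb46 leading; 3 of 8 higher, 2 lower) summed to 447 to 682 TPM in CCl4 and 192 to 309.6 TPM in naive libraries. These leading genes went opposite ways. Itgax averaged 217 TPM in CCl4 and 38.1 TPM in naive libraries, and Zbtb46 37.9 and 97.2 TPM. Hepatocyte markers (Trf and Alb leading; 5 of 10 lower) summed to 508 to 1356 TPM in CCl4 and 991 to 2078 TPM in naive libraries. Stellate cell markers (Col3a1 and Col1a1 leading; 3 of 9 higher, 1 lower) summed to 127 to 149 TPM in CCl4 and 33.8 to 102 TPM in naive libraries. Lymphocyte markers (Nkg7 and Cd79a leading; 2 of 8 lower) summed to 57.1 to 166 TPM in CCl4 and 130.3 to 155 TPM in naive libraries. Neutrophil markers (Cxcr2 and S100a9 leading; 1 of 3 tested lower) summed to 12.9 to 21.3 TPM in CCl4 and 12.2 to 20.7 TPM in naive libraries, and Ly6g was at 0 in all 8. The leading genes are named for their abundance, and Itgal, C1qb, Trf, Alb, Col3a1, Nkg7, Cd79a and Cxcr2 among them were not called. Kupffer cell markers were thus present in both groups, at lower levels in CCl4. In bulk RNA fewer cells of a type and less RNA per cell cannot be told apart, and the part these cell types have in the lysosomal values below was not tested.

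CCl4 replicate 1 stood above the other CCl4 libraries for almost every lysosomal gene. It held the highest of the 3 CCl4 values for 36 of the 38 genes, against 41.6% of all tested genes, and replicate 2-4 held the lowest for 31, against 3705 of all 15629 tested genes. The level in replicate 1 was a median 1.67 times that in 2-4, with a range of 0.947 (Tfeb) to 5.06 (Lgmn). On the log2(TPM + 1) scale the median difference was 0.73 over the lysosomal genes and -0.03 over all tested genes. Grn, Atp6v0c, Atp6v0d1 and Atp6v1a lay above every naive library in replicate 1 and below every naive library in 2-4. Replicate 1 also had the highest summed level of general macrophage markers, at 11418 TPM against 4924 TPM in 2-4 and 7185 TPM in 3. It was highest as well for hepatocyte markers (1356 TPM against 583 and 508 TPM), monocyte markers (1248 TPM against 1006 and 899.8 TPM) and stellate cell markers (149 TPM against 127 and 142 TPM). It was lowest for endothelial markers (299 TPM against 791 and 510.3 TPM) and dendritic cell markers (447 TPM against 682 and 532 TPM), and the part of these in its lysosomal values was not tested. Its 7SL RNA share was the lowest of the CCl4 libraries, 27.8% of TPM against 34.4% and 35.8%. After rescaling to protein-coding genes replicate 1 was still highest for 32 of the 38, against 26.35% of all tested genes, and after median-of-ratios rescaling for 33, against 32.2%. Among naive libraries replicate 2, with a 7SL share of 27.5% against 32.3% to 41.3% in the others, was highest for 29 of 38 genes, against 36.9% of all tested genes. It was highest for 10 after rescaling to protein-coding genes, against 9.63% of all tested genes, and for 17 after median-of-ratios rescaling, against 16.2%.

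**Figure D2:**
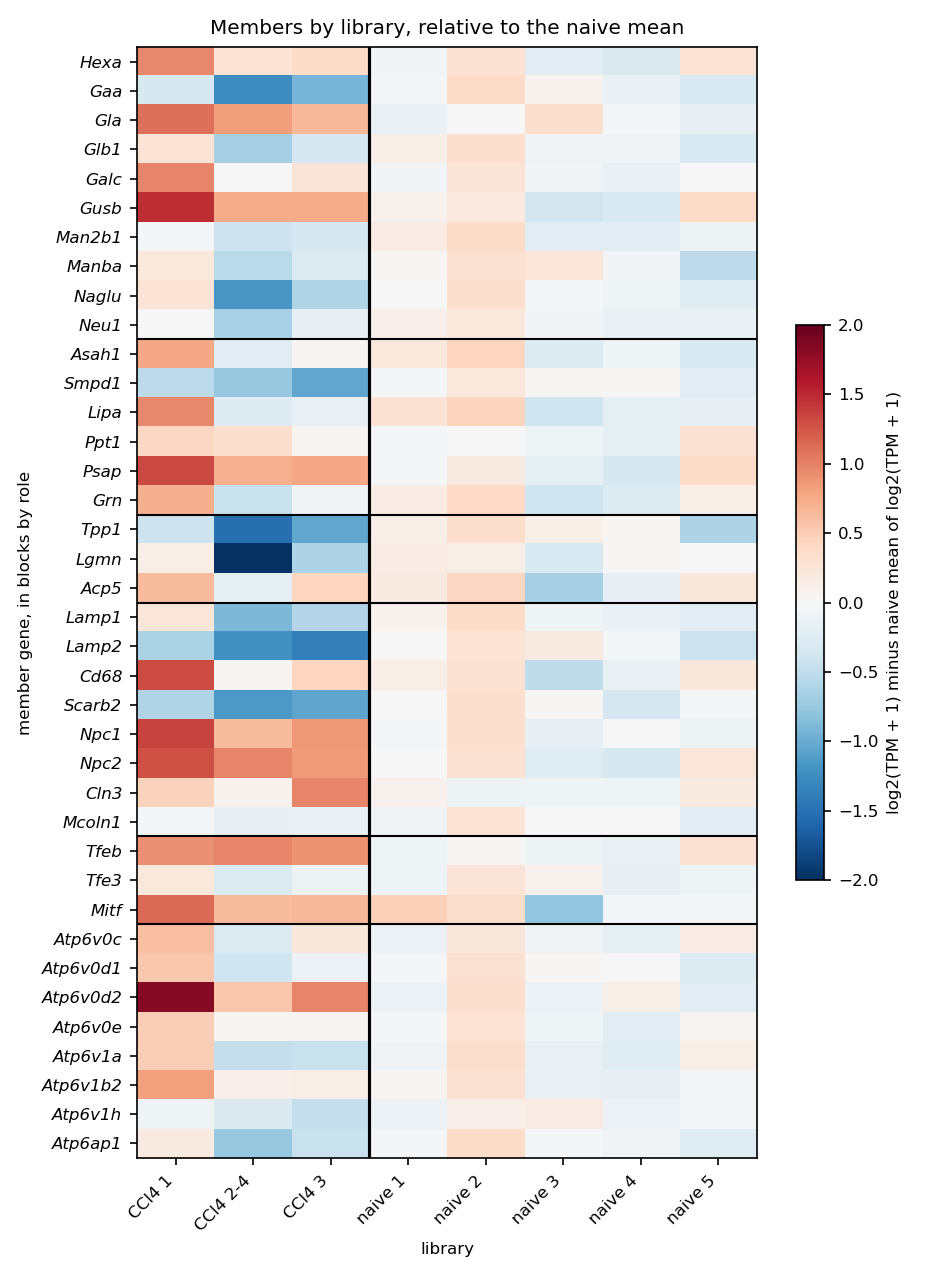
Each gene (rows, in blocks by role) in each library (columns), as log2(TPM + 1) minus the mean of the 5 naive libraries, on a colour scale from -2 to 2. The CCl4 1 column is the highest of the 3 CCl4 columns in 36 of the 38 genes, and Npc1, Npc2, Psap, Gla, Gusb and Tfeb are above the naive mean in all 3.

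The glycosidases remove sugars from glycolipids, glycoproteins and glycogen. Of 10, Gla and Gusb rose, Gaa fell and 7 were not called, and the median log2 fold change was -0.22. Gla (chromosome X, 134588169 to 134601005), the alpha-galactosidase that clears globotriaosylceramide, had 25.5, 21.0 and 18.3 TPM in CCl4 replicates 1, 2-4 and 3, against 10.2, 11.3, 14.4, 11.1 and 9.99 TPM in naive replicates 1 to 5. The groups did not overlap, and the log2 fold change was 0.86 (SE 0.166, adjusted p = 0.00205). Gusb (chromosome 5, 129989011 to 130003049), the beta-glucuronidase of glycosaminoglycan breakdown, had 129, 76.7 and 77.2 TPM in CCl4, against 48.7, 52.2, 35.2, 36.9 and 60.1 TPM in naive libraries. It stood highest in CCl4 replicate 1, but the other pair also lay above every naive library (log2 fold change 0.98, SE 0.225, adjusted p = 0.00565).

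Gaa (chromosome 11, 119267963 to 119285458), the acid alpha-glucosidase that degrades lysosomal glycogen, had 35.8, 18.3 and 23.2 TPM in CCl4, against 43.7, 59.2, 47.4, 41.0 and 36.3 TPM in naive libraries. Its highest CCl4 value lay just under its lowest naive one, and it fell by 0.83 (SE 0.219, adjusted p = 0.0121). It was no longer called without CCl4 replicate 2-4 (adjusted p = 0.0577) and without 3 (adjusted p = 0.0516), with a range of 0.00234 to 0.0903 over 20 alternatives. Hexa, a hexosaminidase subunit of ganglioside breakdown, averaged 309.6 ± 84.6 TPM (SD, n = 3) in CCl4 and 211 ± 40.2 TPM (SD, n = 5) in naive libraries and missed the threshold (log2 fold change 0.54, adjusted p = 0.0571). Hexa was called without CCl4 replicate 2-4 (adjusted p = 0.0454), naive replicate 2 (0.0456) or naive replicate 5 (0.0334), and its alternatives ran from 0.0216 to 0.227. With all libraries kept it was also called with library weights (0.0231), median-of-ratios rescaling (0.0279), quantile normalization (0.032) and the replicate block (0.0216). Galc, which removes galactose from myelin lipids, was at 0.42 (adjusted p = 0.146), and at 0.61 without CCl4 replicate 2-4 (adjusted p = 0.0494; 0.0357 to 0.580 over the alternatives).

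Glycosidases of mannose, heparan sulfate and sialic acid had negative estimates that were not called. Man2b1 and Manba, the alpha- and beta-mannosidases, were at -0.25 and -0.20 and Glb1, the beta-galactosidase, at -0.24. Naglu, of heparan sulfate breakdown, averaged 16.1 ± 8.74 TPM in CCl4 (SD, n = 3) and 21.4 ± 3.48 TPM in naive libraries (SD, n = 5), with a log2 fold change of -0.50 (adjusted p = 0.187). Naglu had 25.8 TPM in CCl4 replicate 1, inside the naive range of 17.7 to 27.1 TPM, and 8.92 and 13.6 TPM in 2-4 and 3. Without replicate 1 its log2 fold change was -0.88 (adjusted p = 0.00949; 0.00949 to 0.768 over the alternatives). Neu1, the sialidase, was at -0.28 (adjusted p = 0.234).

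**Figure D3:**
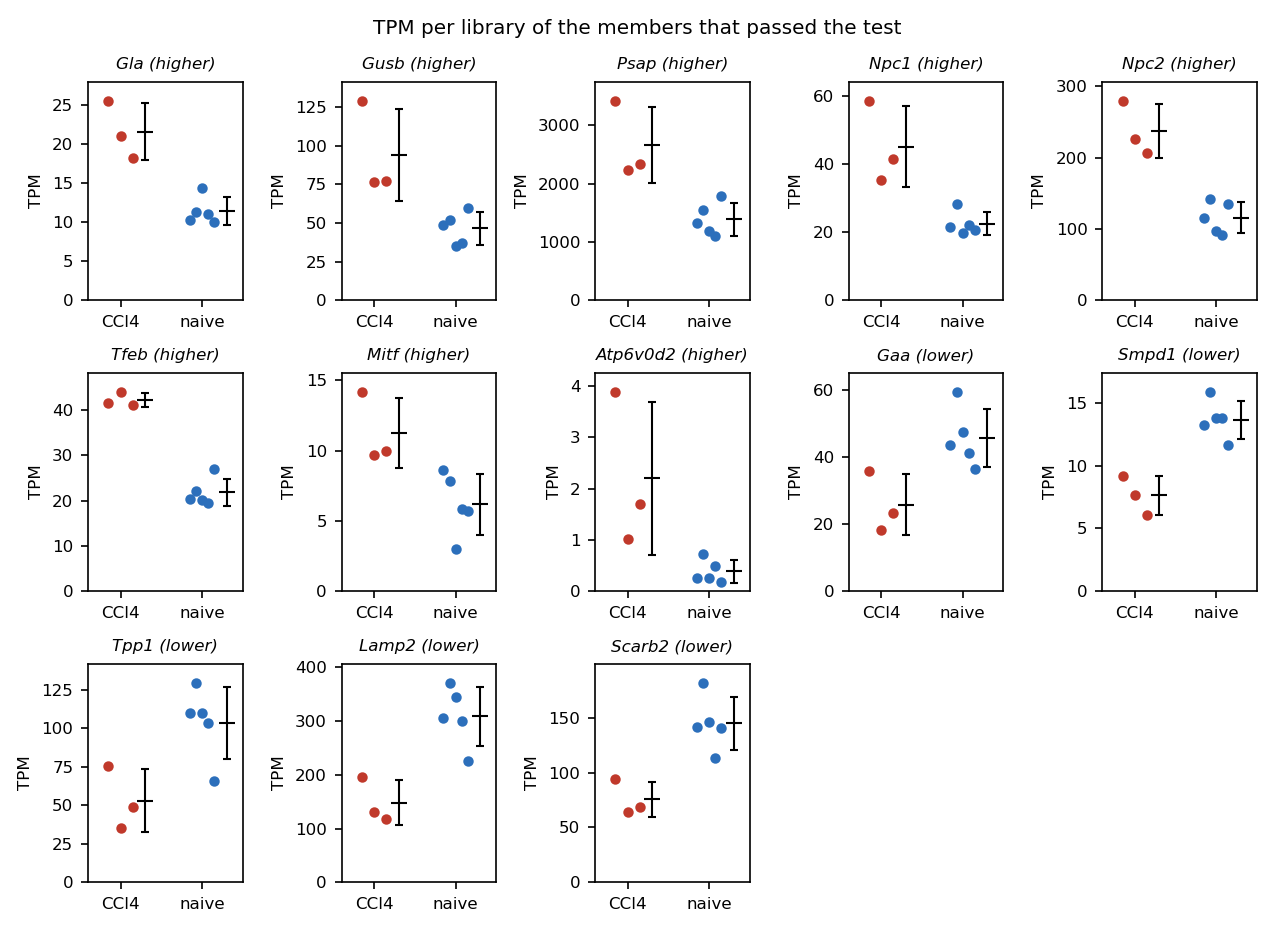
TPM in each library (points) of the 13 genes that passed the test, CCl4 left of naive, with the group mean and SD (bars; n = 3 and 5), each panel on its own axis from 0. The groups overlap for Tpp1 and for no other gene shown, but the genes were chosen by the test on these same values, which favours separation.

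Among the lipid hydrolases, saposins and granulin Psap rose, Smpd1 fell and 4 of 6 were not called. Psap (chromosome 10, 60277628 to 60302600) encodes prosaposin, the precursor of 4 saposins that present sphingolipids to their hydrolases, and was the most abundant of the 38 genes in both groups. It had 3412, 2240.0 and 2336 TPM in CCl4, against 1325, 1547, 1187, 1097 and 1784 TPM in naive libraries. Every CCl4 library lay above every naive one, of which replicate 5 was highest (log2 fold change 0.94, SE 0.218, adjusted p = 0.00624). With quantile normalization it was 0.49 (adjusted p = 0.0262; 0.000859 to 0.0300 over the alternatives). Psap made up 38.1% to 42.0% of the summed TPM of the 38 genes in CCl4 and 23.7% to 31.5% in naive libraries. Most of its TPM fell on RefSeq transcript NM_001146124.1, with 86.2%, 89.9% and 88.7% in CCl4, against 80.4%, 81.2%, 72.9%, 74.8% and 80.3% in naive libraries, while NM_001146120.1 held 0.5% to 6.6% in CCl4 and 10.9% to 18.5% in naive libraries. These shares were looked at after their values were seen, and they rest on how kallisto divides reads among overlapping transcripts.

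Smpd1 (chromosome 7, 105554360 to 105558389), acid sphingomyelinase, had 9.17, 7.67 and 6.08 TPM in CCl4, against 13.2, 15.8, 13.8, 13.8 and 11.6 TPM in naive libraries. All 3 CCl4 values were under the lowest naive value, and it fell by 0.77 (SE 0.165, adjusted p = 0.00388). Asah1, acid ceramidase, Lipa, which frees cholesterol from its esters, and Grn, progranulin, did not pass, at 0.20, 0.19 and 0.08, and their CCl4 values spread widely. Lipa had 213, 90.2 and 97.8 TPM in CCl4, against 82.1 to 148 TPM in naive libraries, so that only replicate 1 lay above the naive range. Without CCl4 replicate 1 the estimates were -0.09 for Asah1, -0.20 for Lipa and -0.25 for Grn, and without naive replicate 3 Grn was at -0.02. Ppt1, the palmitoyl thioesterase, was at 0.26 (adjusted p = 0.180).

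Of the further hydrolases Tpp1 fell, and Lgmn and Acp5 were not called. Tpp1 (chromosome 7, 105744811 to 105752282), the tripeptidyl peptidase lost in a childhood neuronal storage disease, had 75.4, 35.0 and 48.6 TPM in CCl4, against 109.7, 129, 109.6, 103 and 65.7 TPM in naive libraries. CCl4 replicate 1 lay above naive replicate 5, so the groups overlapped. It fell by 0.99 (SE 0.260, adjusted p = 0.0121), and without CCl4 replicate 2-4 the fall of 0.73 was not called (adjusted p = 0.0584; 0.00199 to 0.0584 over the alternatives). Lgmn, the asparaginyl endopeptidase that also activates cathepsins, had 227, 44.8 and 134 TPM in CCl4, against 167 to 229 TPM in naive libraries. Replicate 1 stood inside the naive range and 2-4 far under it, with a log2 fold change of -0.89 (adjusted p = 0.106), and -1.40 without replicate 1 (adjusted p = 0.00977; 0.00977 to 0.747 over the alternatives). Acp5, the tartrate-resistant acid phosphatase also used as an osteoclast marker, averaged 141 ± 38.5 TPM (SD, n = 3) in CCl4 and 115 ± 30.6 TPM (SD, n = 5) in naive libraries, with a log2 fold change of 0.30 (95% interval -0.27 to 0.87, adjusted p = 0.394).

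The cholesterol exporters of the lysosome rose, the membrane glycoproteins Lamp2 and Scarb2 fell, and Lamp1 and Cd68 were not called. Npc2 (chromosome 12, 84754559 to 84773112) binds free cholesterol in the lumen and hands it to Npc1 (chromosome 18, 12189694 to 12236506) in the membrane. Npc2 had 279, 226 and 206 TPM in CCl4, against 115, 141, 96.5, 91.6 and 135 TPM in naive libraries. Npc1 had 58.5, 35.4 and 41.6 TPM in CCl4, against 21.7, 28.3, 20.0, 22.3 and 20.8 TPM in naive libraries. For both the groups did not overlap, with log2 fold changes of 1.03 for Npc2 (SE 0.179, adjusted p = 0.00103) and 0.95 for Npc1 (SE 0.182, adjusted p = 0.00197). The interval of Npc1 overlaps the gene Rmc1 (23.2 TPM in CCl4 and 19.8 TPM in naive libraries on average), and whether the counting used strand is not given in the sources used here.

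Lamp2 (chromosome X, 38399647 to 38456460), a lysosomal membrane glycoprotein needed for fusion with autophagosomes, had 196, 131 and 118 TPM in CCl4, against 305, 369.9, 344, 299 and 225 TPM in naive libraries. Scarb2 (chromosome 5, 92441311 to 92505657), which carries glucocerebrosidase to the lysosome, had 94.1, 63.7 and 68.6 TPM in CCl4, against 142, 181, 146, 113 and 141 TPM in naive libraries. Both were lower in every CCl4 library than in any naive one, and fell by 1.07 (SE 0.205, adjusted p = 0.00198) and 0.93 (SE 0.177, adjusted p = 0.00185). Beside these falls the endothelial markers summed to at most 791 TPM in a CCl4 library and at least 7952 TPM in a naive one, and their part in these falls was not tested. The shares of Lamp2 transcripts also differed between the groups, which was not tested. They too rest on how kallisto divides reads among overlapping transcripts. Transcript NM_001017959.2 held 52.0%, 58.5% and 60.1% of Lamp2 TPM in CCl4, against 62.8%, 67.5%, 72.3%, 65.8% and 69.3% in naive libraries, and NM_010685.4 held 37.1% to 46.3% in CCl4 and 26.2% to 35.3% in naive libraries, shares again looked at after their values were seen.

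Lamp1, the other major membrane glycoprotein, averaged 327 ± 141 TPM in CCl4 (SD, n = 3) and 417 ± 71.0 TPM in naive libraries (SD, n = 5) and was not called (log2 fold change -0.41, adjusted p = 0.209). It had 487 TPM in CCl4 replicate 1 and 221 and 274 TPM in 2-4 and 3, and without replicate 1 it fell by 0.74 (adjusted p = 0.0142; 0.0142 to 0.734 over the alternatives). Cd68, a glycoprotein of the same family made by macrophages, had 499, 204 and 270.1 TPM in CCl4, against 220.1, 246, 141, 181 and 234 TPM in naive libraries. Cd68 was above the naive range in replicates 1 and 3 and inside it in 2-4 (log2 fold change 0.59, adjusted p = 0.124), and was called without 2-4 (0.87, adjusted p = 0.0373; 0.00182 to 0.486 over the alternatives). Cln3, a membrane protein lost in juvenile storage disease, was at 0.50 (adjusted p = 0.0620), the 1 gene highest in CCl4 replicate 3, at 53.3 TPM. Cln3 was called without CCl4 replicate 2-4 (adjusted p = 0.0115) and without naive replicate 5 (adjusted p = 0.0460), with a range of 0.0115 to 0.269, and its interval overlaps that of Apobr, which averaged 41.7 TPM in CCl4 and 17.6 TPM in naive libraries. Mcoln1, the lysosomal calcium channel, averaged 29.0 ± 1.60 TPM in CCl4 and 31.5 ± 4.10 TPM in naive libraries, with a 95% interval of -0.42 to 0.20 on the log2 scale.

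Of the 3 transcription factors of lysosome biogenesis followed here Tfeb and Mitf rose and Tfe3 was not called. Their relative Tfec, which is outside the 38 genes, fell by 2.55 (adjusted p = 3.19e-06). Tfeb (chromosome 17, 47737037 to 47792416) had 41.5, 43.8 and 41.1 TPM in CCl4, against 20.4, 22.2, 20.1, 19.5 and 26.9 TPM in naive libraries. Its CCl4 values lay close together, with no excess in replicate 1, and all were above the naive ones (log2 fold change 0.93, SE 0.139, adjusted p = 0.00039, the smallest of the 38 genes). Mitf (chromosome 6, 97807002 to 98021360) had 14.1, 9.69 and 9.98 TPM in CCl4, against 8.60, 7.84, 3.03, 5.82 and 5.70 TPM in naive libraries. The groups did not overlap, but the spread was wide for a low gene (log2 fold change 0.81, SE 0.272, adjusted p = 0.0370), and it was not called once CCl4 replicate 1 (0.133), 2-4 (0.0559) or 3 (0.0716) or naive replicate 4 (0.0670) was left out, adjusted p in each case, over a range of 0.00386 to 0.133. It was also lost after rescaling to protein-coding genes (adjusted p = 0.0551), with library weights (0.0645) and with no filter (0.0803). Tfe3 had 48.6, 34.2 and 38.7 TPM in CCl4, against 39.2, 50.0, 44.5, 37.0 and 39.0 TPM in naive libraries. CCl4 replicates 1 and 3 lay inside the naive range and 2-4 under it, with a log2 fold change of -0.06 (95% interval -0.40 to 0.29).

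Genes with the short CLEAR core in their promoter did not move as one group. Of the 11, Gla rose, Gaa fell and 9 were not called. Their median log2 fold change was -0.14, from -0.89 (Lgmn) to 0.86 (Gla). Of the 22 without it 5 rose and 4 fell, with a median of 0.19. Lamp1, with 4 copies of the core, was at -0.41, and Gla, Cln3 and Mcoln1, with 2 separate sites each, were at 0.86, 0.50 and -0.11. Psap, Npc2, Gusb, Tfeb and Mitf, all higher in CCl4, had no match in their windows, which says only that these letters are absent there.

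**Figure D4:**
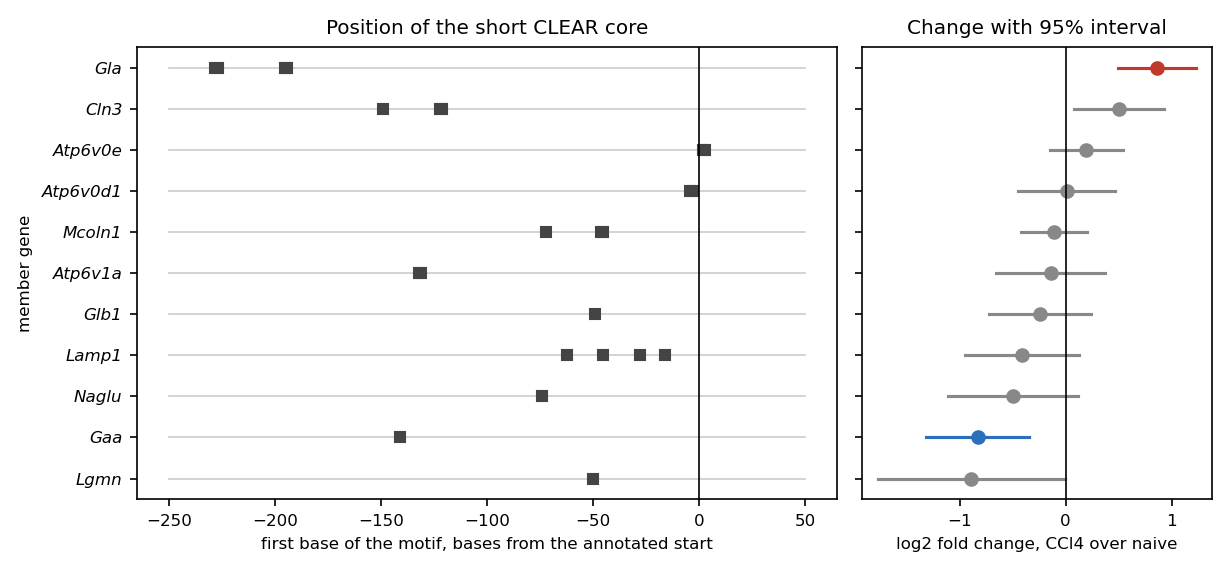
Left, first base of each match to the short CLEAR core on either strand, in bases from the annotated start (0), over the 300 bases searched, for the 11 genes that hold it. Right, their log2 fold change, CCl4 over naive, with its 95% interval, ordered from Gla at the top (0.86) to Lgmn at the bottom (-0.89).

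Of 8 V-ATPase subunits 7 were not called, with log2 fold changes between -0.34 (Atp6ap1) and 0.35 (Atp6v1b2). Atp6v1b2 was called with quantile normalization (0.43, adjusted p = 0.0378; 0.0378 to 0.615 over the alternatives), and Atp6v1h after rescaling to protein-coding genes (-0.35, adjusted p = 0.0145; 0.0145 to 0.502 over the alternatives). Atp6v0d2 (chromosome 4, 19876838 to 19922566), the d subunit form known from osteoclasts, had 3.87, 1.02 and 1.70 TPM in CCl4, against 0.270, 0.733, 0.268, 0.489 and 0.187 TPM in naive libraries. All CCl4 values were above the naive ones, but the levels were near the 1 TPM filter that it passed through the CCl4 libraries alone, so that it had to differ. The log2 fold change was 1.12 (SE 0.274, adjusted p = 0.00831), and 2.14 with a pseudocount of 0.1 and 0.40 with a pseudocount of 5.

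Atp6v0d1, the d subunit found in most tissues, had 84.9, 44.2 and 54.0 TPM in CCl4, against 57.1, 71.9, 59.0, 58.2 and 47.9 TPM in naive libraries. The CCl4 values lay on both sides of the naive range (log2 fold change 0.01, 95% interval -0.45 to 0.47). In TPM, which are per length, Atp6v0d1 was 22.0 to 43.3 times as abundant as Atp6v0d2 in CCl4 and 98.1 to 256 times in naive libraries. Atp6v0c, of the proton-carrying ring, and Atp6v0e were at 0.19 and 0.20. Of the V1 sector, Atp6v1a and Atp6v1b2, which form the catalytic head, were at -0.14 and 0.35 and Atp6v1h at -0.29. Atp6ap1, an accessory subunit of assembly, was at -0.34 (adjusted p = 0.229), and at -0.60 without CCl4 replicate 1 (adjusted p = 0.0300; 0.0300 to 0.838 over the alternatives).

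The summed level of the 38 genes was 8953, 5333 and 5977 TPM in CCl4, against 5437, 6435, 4736, 4637 and 5655 TPM in naive libraries, so the groups overlapped. Without Psap the sums were 3093 to 5542 TPM in CCl4 and 3540 to 4887 TPM in naive libraries, with CCl4 replicate 2-4 under the naive range and replicate 1 above it. The 6 genes of lipid hydrolases, saposins and granulin, Psap among them, summed to 2829 to 4589 TPM in CCl4 and 1711 to 2518 TPM in naive libraries, without overlap. The other 5 of them, Grn the most abundant, overlapped, with 589 to 1177 TPM in CCl4 and 566 to 914 TPM in naive libraries, so the gap was that of Psap. The 3 transcription factors summed to 87.7 to 104 TPM in CCl4 and 62.3 to 80.0 TPM in naive libraries, also without overlap. Their relative Tfec, which fell from an average of 46.0 TPM in naive libraries to 6.88 TPM in CCl4, is not in this sum. The glycosidases, further hydrolases, membrane proteins and V-ATPase subunits overlapped between groups. Of all TPM on protein-coding genes the 38 genes held 1.06% to 1.60% in CCl4 and 0.915% to 1.24% in naive libraries.

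**Figure D5:**
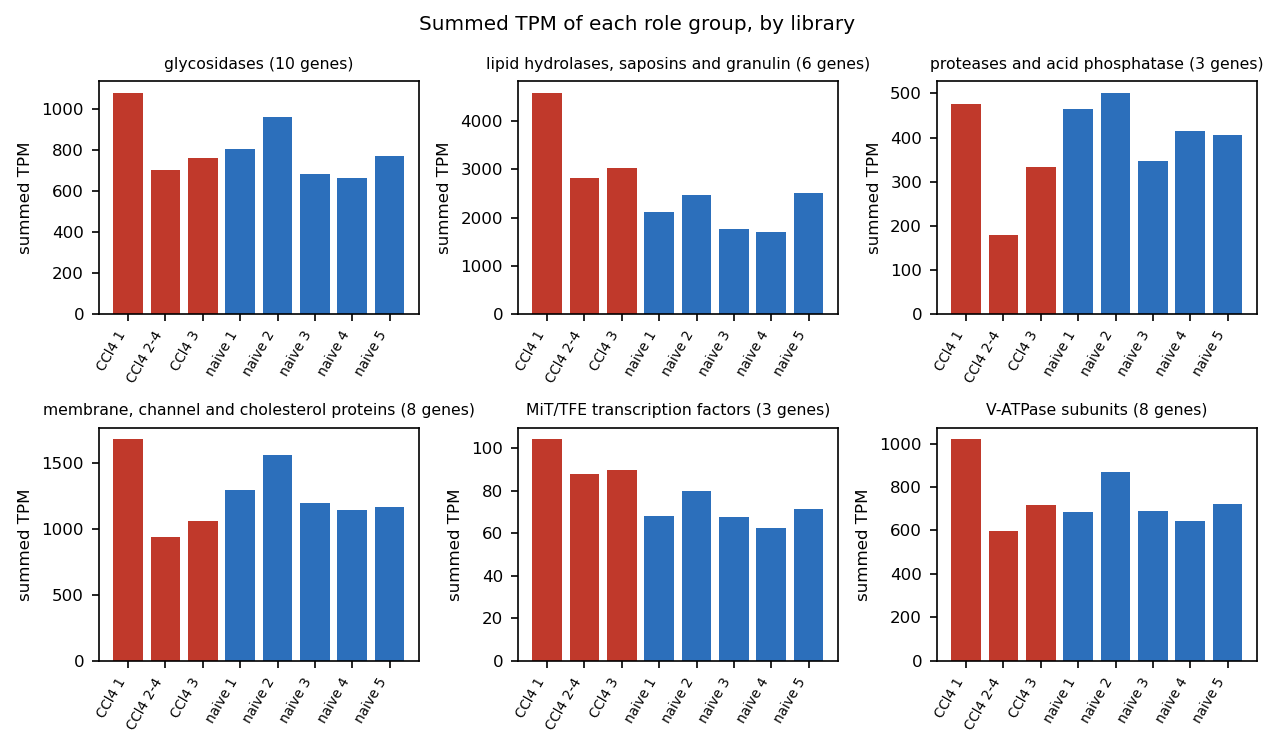
Summed TPM of each role group in each library (bars from 0; 3 CCl4 libraries left, 5 naive libraries right). The lipid hydrolases, saposins and granulin (2829 to 4589 TPM in CCl4 against 1711 to 2518 TPM in naive) do not overlap between groups, through Psap (589 to 1177 against 566 to 914 TPM without it). The transcription factors Tfeb, Tfe3 and Mitf (87.7 to 104 against 62.3 to 80.0 TPM) do not overlap either, mostly through Tfeb. Their relative Tfec, which averaged 6.88 TPM in CCl4 and 46.0 TPM in naive libraries, is not in that sum. CCl4 1 is the highest CCl4 bar in each panel.

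The other genes of lysosome biology also went both ways, read against 15.3% higher and 22.5% lower over all genes. Of 38 other hydrolases and activators 8 rose and 7 fell around a median of 0.00. Gm2a, an activator protein that lifts gangliosides out of membranes for their breakdown, rose by 1.66, and the hyaluronidases Hyal2 and Hyal1 fell by 3.66 and 1.32. Of 11 other V-ATPase subunits tested only Tcirg1, the a3 subunit of the V0 sector, was called, at 281 ± 54.4 TPM in CCl4 and 136 ± 10.6 TPM in naive libraries (log2 fold change 1.02, adjusted p = 0.000309).

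Of 30 other lysosomal membrane proteins tested 9 rose and 6 fell. Cd63, a tetraspanin, rose by 2.90, the transporters Slc15a4 and Slc29a3 by 1.66 and 1.53, and Laptm4b fell by 2.31. Of 15 sorting genes 5 rose and 3 fell: Gnptab, which makes the mannose 6-phosphate tag on hydrolases, rose by 1.24, Ap3b1 by 0.57 and Gga3 by 0.45, while Ap1b1, an adaptor subunit, fell by 1.75. Of 18 genes of the Ragulator, Rag and mTORC1 group 3 rose (Rraga by 0.80, Rragb by 1.28 and Lamtor4 by 0.67) and 1 fell (Tsc2 by 0.51). Of 22 autophagy genes 2 rose and 6 fell. Wipi1 and Gabarapl1, of autophagosome formation, fell by 1.78 and 1.16, and Vps18 rose by 0.75. Tfec, a relative of Tfeb and Mitf that was placed on the autophagy list, averaged 6.88 ± 0.650 TPM in CCl4 and 46.0 ± 9.04 TPM in naive libraries and fell by 2.55 (adjusted p = 3.19e-06).

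Of 9 tested genes of osteoclasts and macrophage fusion, the cell types in which Acp5 and Atp6v0d2 are best known, 4 rose and 3 fell. Trem2 rose by 3.15, Tnfrsf11a, the receptor of the osteoclast factor RANKL, by 1.36 and Nfatc1 by 0.68, while Itgb3 fell by 2.48. The sums of Kupffer cell, endothelial and monocyte markers given above differed between the same groups, and their part in these changes was not tested.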

How the data were processed

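RNA from mouse Kupffer cells was sequenced in 3 CCl4 and 5 naive libraries made with a directional kit, per the labels' protocols. The authors deposited TPM for each RefSeq transcript, as the file headers show. Kallisto 0.42.4 and the build GRCm38 stand in the submitters' processing notes. Neither the index nor the trimming of reads nor the isolation of the cells is given in the sources used here.

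Of 107384 transcripts 86722 matched a gene of the RefSeq table (GRCm38.p6) by accession without version, and their TPM were summed to 32903 genes. The unmatched 20662 held 6.06% to 7.58% of TPM, and GENCODE tied 0 of them to the 38 lysosomal genes. 7SL RNA held 27.5% to 41.3% of TPM, and protein-coding genes 45.5% to 56.0%. Every gene that reached 1 TPM in 3 or more libraries entered limma 3.58.1 (R 4.3.3) as log2(TPM + 1), with eBayes, a trend of variance on intensity, no term besides group, and Benjamini-Hochberg adjustment across genes. This scale understates the change of low genes. Precision comes from the spread among libraries only.

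The 38 genes and the other lists were chosen by function, with earlier results of these data known. Values in every library are given for called genes with a mean of at least 10 TPM in 1 group, the 3 transcription factors and Atp6v0d1 beside Atp6v0d2, and up to 4 called genes of each other lysosomal list are named by smallest adjusted p, as are the 2 most abundant genes of each marker list. Library values of Cd68, Cln3, Lgmn, Lipa, Lamp1 and Naglu were added after they were seen. A result for 1 gene of the other hydrolases is not reported here. Promoters are from RefSeq. Alternatives were other pseudocounts, filters, scalings, variance models, library weights, a replicate block and leaving out each library. The replicate block compares only the libraries whose number occurs in both groups.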

Additional observations from a re-analysis of the deposited data

Results flagged for a closer look

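Among the 5 naive libraries the Npc1 level in replicate 2, 28.3 TPM, stood apart from the other 4 at 20.0 to 22.3 TPM. Its gap was 0.722 of the range, above Dixon's critical value of 0.71. With 45 groups of values looked at, chance flags about 1 in 20. The CCl4 libraries, at 35.4 to 58.5 TPM, lay above it as well, and leaving out this library moved the log2 fold change of Npc1 to 1.03, against 0.95 with all libraries.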

How the results depend on the processing

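Apart from Atp6v0d2, 6 of 7 higher genes and 3 of 5 lower genes kept their direction and call under every alternative; Mitf, Gaa and Tpp1 did not. Atp6v0d2 was not tested without a CCl4 library or under the filter on a mean of 5 TPM. Quantile normalization also called Hexa (0.515), Galc (0.55), Atp6v1b2 (0.43) and Lamp1 (-0.51). Without 1 library at a time 6 to 10 lysosomal genes were higher and 3 to 9 lower (9 lower without CCl4 replicate 1, 3 without 2-4). With quantile normalization 4011 of all tested genes were higher, against 2393 otherwise, so that 56.5% of calls were higher, against 40.5%. The motif share of 3.03% for the full CLEAR element was 33.33% for TCACGTG and 33.33% for CACGTG, which are shorter. Small estimates changed sign: Atp6v0d1 was at -0.0477 after rescaling to protein-coding genes, Mcoln1 at 0.0062 with quantile normalization, and Tfe3 at 0.0326 with median-of-ratios rescaling and 0.049 with quantile normalization; the cause was not tested. Leaving out 1 library at a time gave log2 fold changes of -0.0894 to 0.40 for Asah1, -0.20 to 0.41 for Lipa, -0.25 to 0.33 for Grn, -0.19 to 0.0553 for Tfe3, -0.0185 to 0.42 for Atp6v0c, -0.25 to 0.21 for Atp6v0d1 and -0.46 to 0.0236 for Atp6v1a, the lowest without CCl4 replicate 1 and the highest without 2-4.

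The groups share the replicate numbers 1 and 3, and deviations of same-numbered libraries correlated at 0.077 and -0.041. Correlations from so few libraries cannot decide whether the numbers pair libraries, and the main fit assumed no pairing. Only these numbers occur in both groups, so a fit with the replicate block takes its group difference from libraries 1 and 3 alone. The other libraries, CCl4 2-4 among them, add nothing to its estimates. It called 5312 of all tested genes, against 5906, and of the 38 lysosomal genes 11 were higher, Atp6v0d2 included, and 4 lower. Tfe3 was at 0.0525, Atp6v1a at 0.13, and Gaa was not called (adjusted p = 0.0903). The ranges given over the alternatives include this fit. TPM keep no depth, so what depth limits could not be assessed, and 3 CCl4 libraries limit the precision.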
